A study of Homo sapiens with 12 samples.

Results

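MM.1S is a human multiple myeloma cell line that responds to glucocorticoids, and the 10 genes described here encode its SR splicing factors SRSF1, SRSF2, SRSF3, SRSF4, SRSF5, SRSF6, SRSF7, SRSF9, SRSF10 and SRSF11. They were taken by name, through their Ensembl identifiers, from 17710 genes measured on Affymetrix Clariom S arrays. The 12 arrays covered 3 independent experiments, each with untreated cells (control) and 3 treatments. PIM cells received 100 nM PIM447, an inhibitor of the PIM kinases, for 24 h. Pd cells received 200 nM pomalidomide, a ligand of the cereblon ubiquitin ligase, with 5 nM dexamethasone, a glucocorticoid, for 15 h. PIM-Pd cells received all 3 drugs at these doses for 10 h. Doses were sub-lethal, with a viability of 74 to 81% in the treated cultures, measured as MTT signal (metabolic dye reduction) relative to untreated cells. Every group was the same cell line, so the experiments were repeats of 1 line and not different patients. Exposure time differed between all 3 treatments, so drug and time cannot be told apart in any comparison below. The culture time of the control cells is not given, and the same control group was the reference for all 3 treatments.

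SR proteins carry RNA-binding domains and a tail rich in arginine and serine. They bind short enhancer sequences in exons and help the spliceosome choose splice sites, and some of them also take part in mRNA export and translation. Kinases of the SRPK and CLK families phosphorylate the tail and so control where in the cell an SR protein is and how active it is. Many SR genes limit their own mRNA by including a poison exon, which sends the transcript to nonsense-mediated decay. A single array value per gene does not separate such transcripts from productive ones. SRSF1 is a known target of the transcription factor MYC, which myeloma cells often depend on.

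All values below are log2 expression, and differences are between group means of 3 arrays on that scale. A gene was called at a Benjamini-Hochberg adjusted p under 0.05 over all 17710 genes in limma. Array medians ran from 4.81 to 4.89, and the correlation between arrays of a group ran from 0.987 to 0.993 over genes. Of the plasma cell markers that could be named, IRF4 lay between 9.94 and 10.24, CD38 between 8.39 and 8.55 and SLAMF7 between 9.79 and 10.13 in the control arrays. The T cell marker CD3E lay between 4.33 and 4.88 and PECAM1, an adhesion protein of endothelial cells that plasma cells also carry, between 4.76 and 4.97. Only 3 of 9 plasma cell markers and 2 of 16 markers of other cell types could be named. The names came from the study's lists of genes deregulated in these same samples. The remaining markers were not analysed here.

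Promoters are shown first as a description, and their part in the differences described after them was not tested. RefSeq (GRCh38.p14) gave the 250 bases before the start for 9 of the 10 genes, all but SRSF2. The 5 sequences below belong to SRSF1, SRSF3, SRSF6 and SRSF7, which fell in PIM-Pd cells, and to SRSF5, which was not called. Each is written on the strand of its gene, and capitals mark matches to 5 standard promoter elements searched on both strands. The elements were the E-box CACGTG bound by MYC, the ETS core CGGAAG, the CCAAT box CCAAT, the GC box GGGCGG and the TATA box TATAAA. Their coordinates are chr17:58007247-58007496 on the minus strand for SRSF1, chr6:36594112-36594361 on the plus strand for SRSF3, chr20:43457646-43457895 on the plus strand for SRSF6, chr2:38751495-38751744 on the minus strand for SRSF7 and chr14:69766892-69767141 on the plus strand for SRSF5.
SRSF1: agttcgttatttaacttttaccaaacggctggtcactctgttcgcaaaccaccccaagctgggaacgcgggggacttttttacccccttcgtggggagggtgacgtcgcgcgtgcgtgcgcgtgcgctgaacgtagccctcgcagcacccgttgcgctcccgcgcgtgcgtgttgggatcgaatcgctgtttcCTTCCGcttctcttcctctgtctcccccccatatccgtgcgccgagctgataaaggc
SRSF3: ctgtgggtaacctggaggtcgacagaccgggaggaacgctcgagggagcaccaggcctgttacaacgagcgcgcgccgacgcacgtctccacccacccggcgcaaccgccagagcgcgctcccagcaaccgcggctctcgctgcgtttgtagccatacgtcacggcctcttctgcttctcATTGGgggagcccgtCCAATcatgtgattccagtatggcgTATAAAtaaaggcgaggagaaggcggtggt
SRSF6: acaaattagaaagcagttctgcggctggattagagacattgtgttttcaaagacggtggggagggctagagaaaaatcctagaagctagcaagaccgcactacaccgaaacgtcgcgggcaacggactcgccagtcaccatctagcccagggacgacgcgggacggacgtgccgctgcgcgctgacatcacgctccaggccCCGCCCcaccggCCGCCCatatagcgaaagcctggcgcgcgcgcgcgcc
SRSF7: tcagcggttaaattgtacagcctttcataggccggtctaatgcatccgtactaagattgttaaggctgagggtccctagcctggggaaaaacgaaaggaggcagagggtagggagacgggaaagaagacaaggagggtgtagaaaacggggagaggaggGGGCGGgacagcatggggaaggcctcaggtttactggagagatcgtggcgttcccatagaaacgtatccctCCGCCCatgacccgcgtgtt
SRSF5: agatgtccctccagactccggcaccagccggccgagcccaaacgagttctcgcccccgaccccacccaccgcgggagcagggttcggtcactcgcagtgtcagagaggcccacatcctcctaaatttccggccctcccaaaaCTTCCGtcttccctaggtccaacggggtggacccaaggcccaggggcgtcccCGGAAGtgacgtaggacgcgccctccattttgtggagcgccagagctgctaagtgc

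G and C made up 54.8 to 64.8% of the 5 windows shown. They made up 68.4% of the window of SRSF9, which also fell in PIM-Pd cells, and 73.6% of that of SRSF4. SRSF9, SRSF10 and SRSF11 held none of the 5 elements. The ETS core was in 3 of the 9 promoters (SRSF1, SRSF4 and SRSF5) and in 16.5% of 35116 RefSeq promoters of the same length. The GC box was in 3 (SRSF4, SRSF6 and SRSF7) against 42.6% of all promoters. SRSF3 alone held the CCAAT box, found in 32% of all promoters, and it alone held TATAAA, found in 10.7%. It had both orientations of CCAAT, 70 and 55 bases before its start, and TATAAA 30 bases before it. CACGTG was in 0 of the 9 windows and in 6.34% of all promoters, which says only that these letters are not in these windows. Other motifs were also looked at and are not reported, and a match is a description of the letters and not of binding.

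In cells given all 3 drugs, 6 of the 10 SR genes fell relative to control and none rose. SRSF2 fell by 55.1%, SRSF6 fell by 44.2%, SRSF3 fell by 37.7%, SRSF7 fell by 34.7%, SRSF9 fell by 29.8% and SRSF1 fell by 28.1%. The members that were not called were SRSF4, SRSF5, SRSF10 and SRSF11. In RNA from whole cultures, fewer expressing cells and less RNA per cell cannot be told apart. Among all genes, 5.02% were called lower and 4.42% higher in the same comparison. PIM-Pd arrays lay below all control arrays for 7 members, the called ones and SRSF10, as for 12.5% of all genes. It follows that the same 7 were lower in each of the 3 experiments, so this is not a separate observation. Among all genes 20.1% were lower in each experiment. The median log2 difference of the 10 genes was -0.49, against 0.01 over all genes. The genes were chosen with earlier results of these data known, so the values beside all genes are a description.

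**Figure D1:**
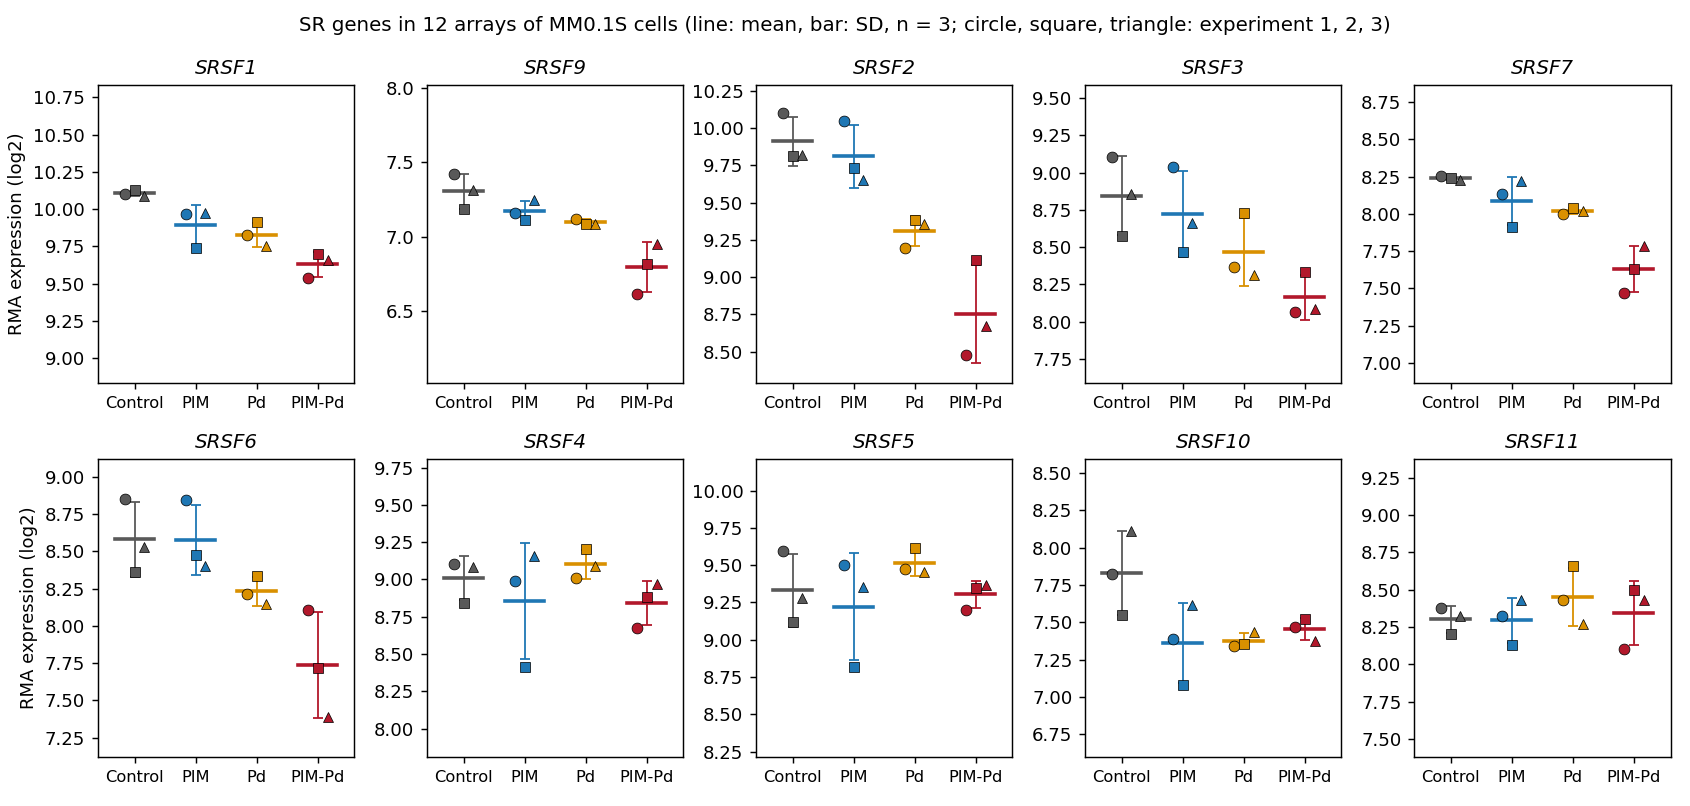
Each panel plots the log2 RMA expression of 1 SR gene (vertical axis, a span of 2 log2 units in every panel) in the 12 arrays by group; points are arrays, marked by experiment, lines are group means and bars are SD (n = 3). In the upper row and in SRSF6 the PIM-Pd arrays lie below all control arrays, while SRSF4, SRSF5 and SRSF11 overlap between these groups.

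SRSF2 (ENSG00000161547_at), also known as SC35 and a marker of nuclear speckles, read 10.10, 9.81 and 9.82 in the control arrays of experiments 1, 2 and 3, 10.05, 9.73 and 9.65 in PIM, 9.19, 9.38 and 9.36 in Pd and 8.48, 9.12 and 8.67 in PIM-Pd. The PIM-Pd arrays lay below those of every other group, and the Pd arrays lay below control and PIM. Its difference in PIM-Pd was -1.16 (SE 0.16; limma adjusted p = 0.000397), or 0.449 of the control level, and 0.288% of all genes had a lower difference. SRSF2 was the only member that was both called and at least 2-fold lower, as were 0.565% of all genes. Within the 3 experiments the difference was -1.63, -0.70 and -1.14, with the smallest fall in experiment 2.

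SRSF1 (ENSG00000136450_at), the founding member of the family, and SRSF9 (ENSG00000111786_at), its closest relative, are described together. SRSF1 read 10.10, 10.13 and 10.09 in control, 9.97, 9.74 and 9.97 in PIM, 9.83, 9.91 and 9.75 in Pd and 9.54, 9.70 and 9.66 in PIM-Pd. Its control arrays stood above all 9 treated arrays. The PIM-Pd difference was -0.48 (SE 0.11; limma adjusted p = 0.00973) and it was alike in the 3 experiments, at -0.56, -0.43 and -0.43. SRSF9 read 7.42, 7.18 and 7.32 in control, 7.16, 7.12 and 7.25 in PIM, 7.12, 7.09 and 7.09 in Pd and 6.62, 6.81 and 6.96 in PIM-Pd. Here the control and PIM arrays overlapped and the PIM-Pd arrays lay below all others. The SRSF9 difference in PIM-Pd was -0.51 (SE 0.11; limma adjusted p = 0.00906).

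SRSF3 (ENSG00000112081_at) and SRSF7 (ENSG00000115875_at) are small, closely related proteins that couple splicing to mRNA export and 3' end processing, and SRSF7 also has a zinc knuckle. SRSF3 read 9.11, 8.57 and 8.86 in control, 9.04, 8.47 and 8.66 in PIM, 8.37, 8.73 and 8.31 in Pd and 8.07, 8.34 and 8.09 in PIM-Pd. All PIM-Pd arrays were below all control arrays, but the control arrays themselves spread widely. The PIM-Pd difference of SRSF3 was -0.68 (SE 0.17; limma adjusted p = 0.0198), made up of -1.04, -0.24 and -0.77 in the 3 experiments. The call was lost when any of 4 arrays was left out: the adjusted p in limma was 0.0989 without control replicate 1, 0.0635 without control replicate 3, 0.0679 without PIM-Pd replicate 1 and 0.0688 without PIM-Pd replicate 3. SRSF7 read 8.26, 8.24 and 8.23 in control, 8.13, 7.91 and 8.22 in PIM, 8.0, 8.04 and 8.02 in Pd and 7.47, 7.63 and 7.78 in PIM-Pd. Its control and Pd arrays were tight, and every Pd array lay between the control and PIM-Pd arrays. The PIM-Pd difference of SRSF7 was -0.61 (SE 0.11; limma adjusted p = 0.00313).

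SRSF4 (ENSG00000116350_at), SRSF5 (ENSG00000100650_at) and SRSF6 (ENSG00000124193_at) are a subgroup with paired RNA-binding domains and long tails, and 1 of the 3 was called in PIM-Pd cells. SRSF6 read 8.85, 8.36 and 8.53 in control, 8.84, 8.48 and 8.41 in PIM, 8.21, 8.34 and 8.15 in Pd and 8.10, 7.72 and 7.39 in PIM-Pd. Its PIM-Pd arrays lay below those of all other groups and spread over more than the control arrays did. The PIM-Pd difference of SRSF6 was -0.84 (SE 0.18; limma adjusted p = 0.00712), at -0.75, -0.64 and -1.14 in the 3 experiments. SRSF5 read 9.60, 9.12 and 9.28 in control, 9.50, 8.81 and 9.35 in PIM, 9.47, 9.61 and 9.45 in Pd and 9.20, 9.34 and 9.37 in PIM-Pd. All groups overlapped with control. Its PIM-Pd difference was -0.03, with a 95% interval from -0.38 to 0.32. SRSF4 ranged from 8.84 to 9.10 in control and from 8.68 to 8.97 in PIM-Pd, with a difference of -0.17 and an interval from -0.52 to 0.18. The interval of SRSF6 ran from -1.22 to -0.46, and it overlapped that of SRSF4 but not that of SRSF5. Whether the members differ from each other was not tested.

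SRSF10 (ENSG00000188529_at), which represses splicing when dephosphorylated, as in heat shock and mitosis, was not called in any comparison. It read 7.82, 7.55 and 8.11 in control, 7.39, 7.08 and 7.62 in PIM, 7.34, 7.36 and 7.44 in Pd and 7.47, 7.52 and 7.37 in PIM-Pd. Control arrays lay above all Pd and PIM-Pd arrays and overlapped with PIM, and the 3 treated groups overlapped with each other. Its differences from control were -0.47 in PIM, -0.45 in Pd and -0.37 in PIM-Pd (SE 0.15 each), with limma adjusted p = 0.667, 0.109 and 0.161, so none was called. SRSF11 (ENSG00000116754_at), a more distant family member, ranged from 8.20 to 8.38 in control and from 8.10 to 8.50 in PIM-Pd. Its PIM-Pd difference was 0.04, with an interval from -0.25 to 0.33.

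**Figure D2:**
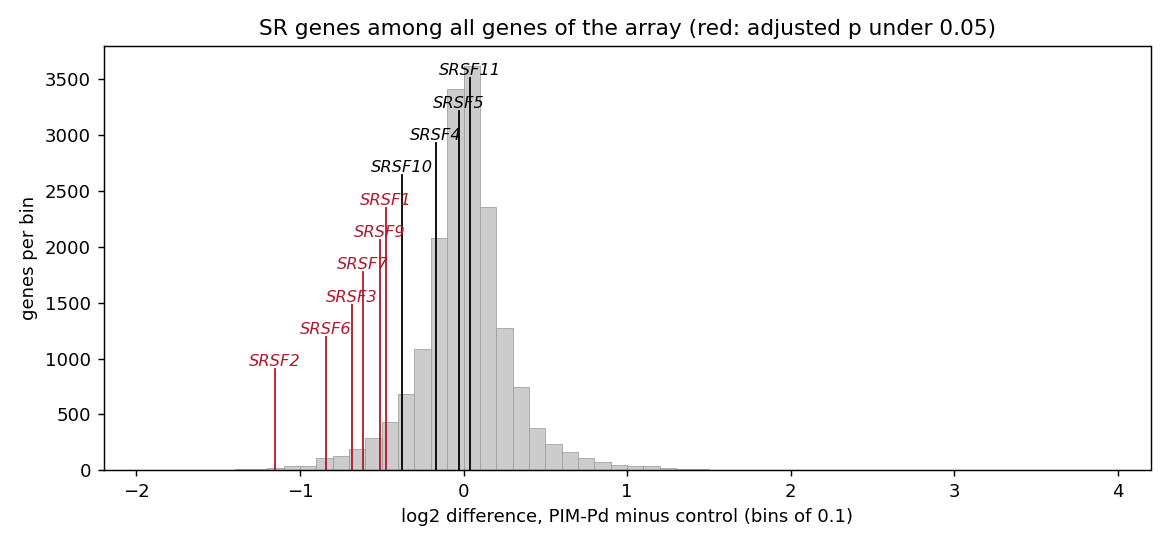
Grey bars count genes, out of all 17710, by their log2 difference between PIM-Pd and control (horizontal axis, bins of 0.1). Only bins that start from -1.6 to 1.4 are drawn, and the few genes beyond them are left out. Vertical lines mark the SR genes, red where called, and the heights of these lines only keep the names apart. The 6 called genes lie between -1.16 and -0.48, and SRSF11 and SRSF5 lie in the central bins.

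With pomalidomide and dexamethasone 1 member passed the test, and with PIM447 alone 0 did. In Pd cells SRSF2 fell by 34.0% (log2 difference -0.60, SE 0.16; limma adjusted p = 0.042), where 1.94% of all genes were called lower and 3.48% higher. The other members ranged from -0.45 for SRSF10 to 0.18 for SRSF5, with a median over the 10 of -0.25 against -0.01 over all genes. The Pd and control arrays did not overlap for 6 members (SRSF1, SRSF2, SRSF6, SRSF7, SRSF9 and SRSF10), lower in Pd, as for 12.3% of all genes. The call of SRSF2 was lost without control replicate 1 (limma adjusted p = 0.181), 2 (0.0712) or 3 (0.0804), without Pd replicate 1 (0.163), 2 (0.0753) or 3 (0.106), and without PIM-Pd replicate 3 (0.051), which enters only through the shared estimate of the spread.

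In PIM cells 0 of the 10 members were called, as for 0% of all genes, while 520 genes were lower and 578 higher at an unadjusted p under 0.05 in limma. The 10 differences ran from -0.47 for SRSF10 to -0.00 for SRSF6, and those of SRSF6 and SRSF11 turned to 0.048 and 0.041 after quantile normalization. Their median was -0.13 against 0.01 over all genes. SRSF10 was the 1 member with an unadjusted p under 0.05, which 2.94% of genes had in that direction. It was lower in each experiment, at -0.43, -0.47 and -0.50. So were SRSF1, SRSF2, SRSF3, SRSF7 and SRSF9, as well as 14.8% of all genes. SRSF1 and SRSF7 had PIM arrays that did not overlap control, as did 4.99% of all genes in that direction. The interval of SRSF2 under PIM ran from -0.44 to 0.24 and that of SRSF6 from -0.38 to 0.37 on the log2 scale, and both include 0. The 3 comparisons with control share the same control arrays, and all comparisons with PIM-Pd cells share its 3 arrays.

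**Figure D3:**
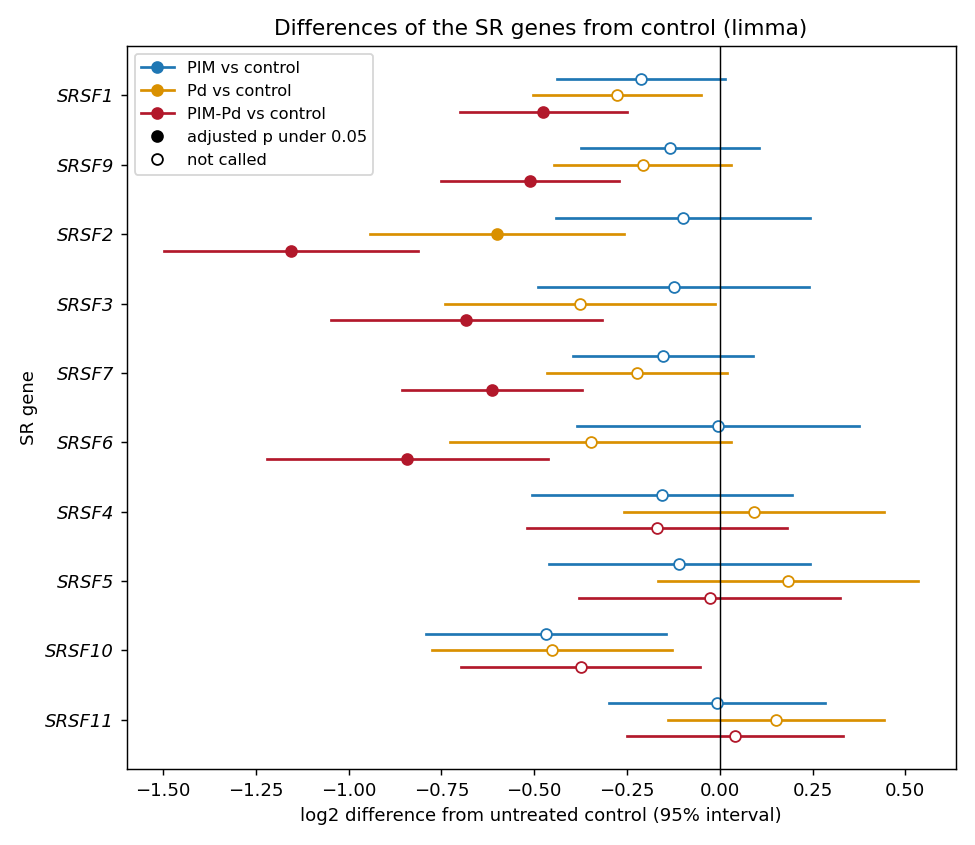
Points are log2 differences from control for each SR gene in PIM, Pd and PIM-Pd cells with 95% intervals from limma, filled where the adjusted p was under 0.05. SRSF2 is filled for Pd and PIM-Pd, SRSF1, SRSF3, SRSF6, SRSF7 and SRSF9 for PIM-Pd, and no gene for PIM.

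The group means of the 6 genes that fell in PIM-Pd cells are given as a description, since choosing genes for a PIM-Pd value below control fixes that part of their order. For SRSF2 the means in control, PIM, Pd and PIM-Pd were 9.91 ± 0.17, 9.81 ± 0.21, 9.31 ± 0.10 and 8.76 ± 0.33 (SD, n = 3). For SRSF6 control and PIM were at 8.58 ± 0.25 and 8.58 ± 0.23, followed by 8.23 ± 0.10 in Pd and 7.74 ± 0.36 in PIM-Pd. In the order control, PIM, Pd and PIM-Pd, the means of SRSF1 were 10.11, 9.89, 9.83 and 9.63. Those of SRSF3 were 8.85, 8.72, 8.47 and 8.16. SRSF7 had means of 8.24, 8.09, 8.02 and 7.63, and SRSF9 had 7.31, 7.17, 7.10 and 6.80. The PIM means of SRSF1, SRSF7 and SRSF9 thus lay closer to Pd than to control. The PIM means of SRSF2 and SRSF6 lay between the Pd and control means or at the control mean, and for SRSF6 the PIM difference from control turned to 0.048 after quantile normalization and to 0.13, 0.045 and 0.081 without control replicate 1, PIM replicate 2 or PIM replicate 3. For SRSF3 it turned to 0.0065 without control replicate 1 and 0.0037 without PIM replicate 2. The steps from control to PIM, PIM to Pd and Pd to PIM-Pd each had 0 members called.

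Relative to PIM cells, 3 members fell in PIM-Pd cells, where 2.71% of all genes were called lower and 2.95% higher. SRSF2 fell by 51.9% (-1.06; limma adjusted p = 0.00106), SRSF6 fell by 44.0% (-0.84; 0.0113) and SRSF7 fell by 27.4% (-0.46; 0.0262). SRSF2 was also the member past 2-fold here, a rule that 0.294% of all genes met in this direction. The PIM-Pd arrays lay below the PIM arrays without overlap for 6 members, as for 9.35% of all genes, and the median difference was -0.32 against -0.01. SRSF3 (-0.56, adjusted p = 0.0738) and SRSF9 (-0.38, 0.0652) were not called by limma. With the 6 arrays of these groups alone, SRSF6 (0.0542) and SRSF7 (0.134) were no longer called. SRSF6 was also lost without PIM replicate 1 (limma adjusted p = 0.0545) or PIM-Pd replicate 3 (0.0551). SRSF7 was lost without PIM replicate 1 (limma adjusted p = 0.0814) or 3 (0.0866) and without PIM-Pd replicate 1 (0.0937) or 2 (0.0661). SRSF3 was called by limma without PIM replicate 2 (adjusted p = 0.0484), with dim genes left out (0.0497) and with trended robust moderation (0.0469). SRSF9 was called by limma after quantile normalization (adjusted p = 0.0493).

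Against Pd, 0 members were called in the triple combination, where 0.0734% of all genes were called lower and 0.00565% higher. At an unadjusted p under 0.05 in limma there were 4 lower members (SRSF2, SRSF6, SRSF7 and SRSF9), against 4.66% of all genes in that direction. SRSF2 differed by -0.56 (limma adjusted p = 0.305), SRSF6 by -0.49 (0.445) and SRSF7 by -0.39 (0.309). Lower values in all 3 experiments were found for 8 members, all but SRSF10 and SRSF11, and for 16.7% of all genes. The arrays did not overlap for SRSF1, SRSF2, SRSF4, SRSF5, SRSF6, SRSF7 and SRSF9, as for 7.79% of all genes. The median difference of the 10 genes was -0.28 against 0.00 over all genes.

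**Figure D4:**
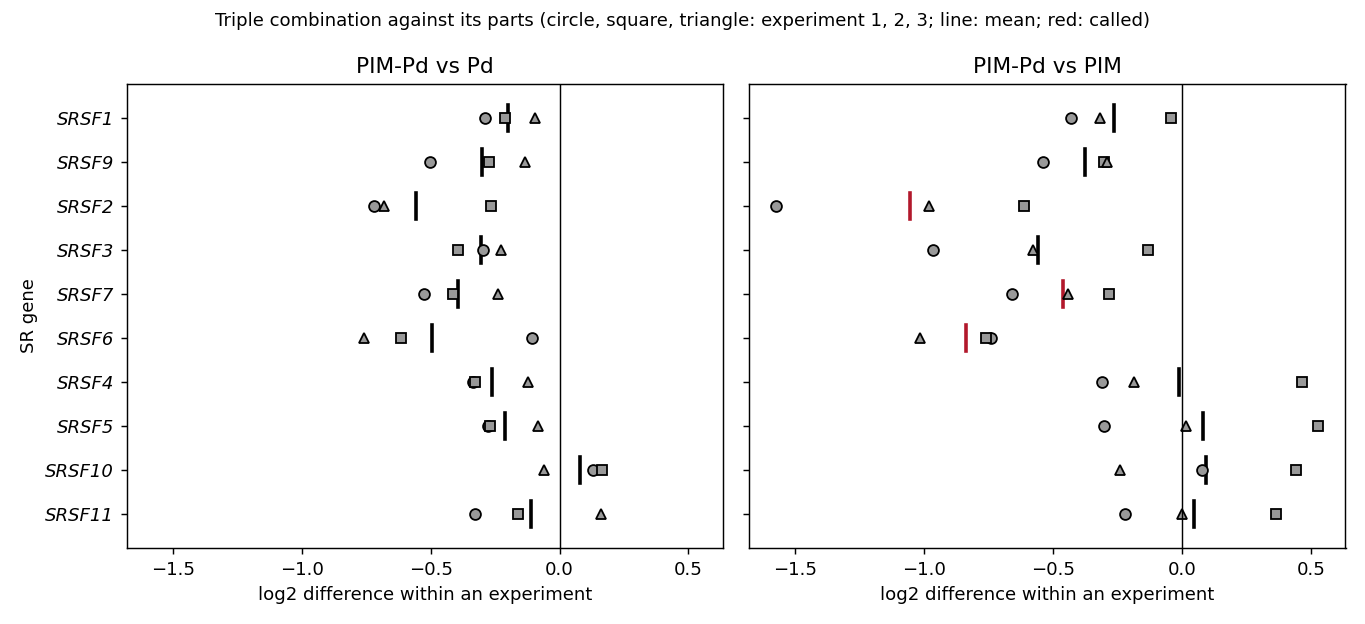
Points are log2 differences of PIM-Pd from Pd (left) and from PIM (right) within each of the 3 experiments, with their means as lines, red where limma called the gene. Against Pd all points of SRSF1 to SRSF7 and SRSF9 lie below 0, and against PIM the square of experiment 2 is the highest point for every gene but SRSF6 and SRSF9.

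Pd and PIM cells were compared with each other as well, and 0 members were called, where 0.92% of all genes were called lower and 2.47% higher in Pd. SRSF2 had the lowest value, -0.50 (limma adjusted p = 0.117), and was the 1 member lower at an unadjusted p under 0.05, as were 6.9% of all genes. SRSF5 had the highest value, 0.29 (limma adjusted p = 0.441). The interaction asked whether the PIM447 difference was the same with and without Pd on the log2 scale. None of the 10 genes was called, where 0.0113% of all genes were called lower and 0.00565% higher. SRSF10 had a value of 0.55 (SE 0.21; limma adjusted p = 0.816), at 0.56, 0.64 and 0.44 in the 3 experiments. It was the 1 member with an unadjusted p under 0.05 in limma (0.0222), as were 2.5% of all genes in that direction. For SRSF2 it was -0.46 and for SRSF6 -0.49, both with intervals that include 0, so neither a departure from additivity nor its absence was shown.

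Other genes of the splicing pathway could be named only where the study's own gene lists paired an identifier with a symbol, which holds for 10 of 141 genes on 6 lists. Those lists were chosen on these samples and are not independent evidence of any direction. The list of SR kinases, phosphatases and nuclear import receptors had 3 of 13 genes named, with 1 rising and 1 falling in PIM-Pd cells. Over all genes 4.42% were called higher and 5.02% lower there. CLK4, a kinase of SR tails, rose by 0.70 (limma adjusted p = 0.011). TNPO1, a nuclear import receptor, fell by 0.55 (limma adjusted p = 0.00606). TNPO3, the other import receptor on that list, was not named. The kinase SRPK1 differed by -0.50 (limma adjusted p = 0.136). In Pd cells CLK4 also rose, by 0.67 (limma adjusted p = 0.0229), and TNPO1 fell by 0.42 (0.0442). Of the core spliceosome 5 of 47 genes were named and 2 fell in PIM-Pd cells, where 5.02% of all genes were called lower. They were SF3B3, a subunit of the U2 particle's SF3b complex, which fell by 0.59 (limma adjusted p = 0.031), and SNRPC, a protein of the U1 particle, which fell by 0.38 (0.0294). In Pd cells SF3B3 differed by -0.22 (limma adjusted p = 0.578) and SNRPC by -0.15 (0.543). SNRPF, PHF5A and PUF60, the other named core genes, were not called in PIM-Pd cells. They differed by -0.80, -0.43 and -0.44 (limma adjusted p = 0.099, 0.0631 and 0.0929). From the mRNA export list, of which 1 of 13 was named, the export adaptor ALYREF fell by 0.64 in PIM-Pd cells (limma adjusted p = 0.00613) and differed by -0.45 in Pd cells (0.0621). From the hnRNP list, of which 1 of 25 was named, HNRNPLL, a splicing regulator of lymphocytes and plasma cells, rose by 0.57 in PIM-Pd cells (limma adjusted p = 0.0167) and by 0.72 in Pd cells (0.00617). On the lists of other SR-related proteins and of exon junction and decay factors, 0 of 28 and 0 of 15 genes were named.

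MYC read a mean of 9.49 ± 0.24 in control, 9.45 ± 0.26 in PIM, 9.04 ± 0.05 in Pd and 8.64 ± 0.13 in PIM-Pd (SD, n = 3). It fell by 0.85 in PIM-Pd cells (limma adjusted p = 0.00204) and differed by -0.44 in Pd cells (0.109). The plasma cell factor IRF4 fell by 1.12 in PIM-Pd cells (limma adjusted p = 0.000118) and by 1.10 in Pd cells (0.000192). CD38 rose by 0.42 (limma adjusted p = 0.0463) and PECAM1 by 0.72 (0.0494) in PIM-Pd cells, while CD3E differed by -0.57 (0.0573). The part of MYC or of any marker in the SR gene values was not tested.

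Taking the mean of the 10 SR genes in each treated array, relative to control, the gene outside the family with the smallest root mean square difference to it over the 9 treated arrays was ENSG00000163655 (0.071), which is not named here. Of the 5 closest genes outside the family, at 0.071 to 0.0945, only UQCRC2 could be named, a core subunit of mitochondrial complex III (0.0915). By the same measure SRSF1 was the member closest to the mean (0.0666) and SRSF2 the farthest (0.477).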

How the data were processed

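Total RNA of MM.1S cells was hybridised to 12 Clariom S arrays, 3 for each of 4 groups taken from the sample labels. The deposited values are log2 expression per gene, which the authors made by RMA (oligo 1.44.0 in R 3.5.0) with a custom chip definition that summarises probes by Ensembl gene. The genome build is not given in the sources used here. RMA sets all arrays to a common distribution, so a change in total RNA per cell cannot be seen. Genes sharing probes with near-identical copies were not separated. The number of arrays limits the precision. No column was left out.

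The study ranked genes by SAM, which was not run here. Instead limma 3.58.1 (lmFit and eBayes, R 4.3.3) was fitted to all 12 arrays by group, with Benjamini-Hochberg adjustment over 17710 genes and calls at an adjusted p under 0.05. A second rule also asked for a 2-fold change. The fit was tested on simulated data. Intervals are 95%. P-values measure the spread between repeats of 1 cell line. No pair of arrays held the same values.

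The labels describe the replicate numbers as pairs, 1 per experiment. The deviations of same-numbered arrays from their group means correlated at -0.10 to 0.30 over 18 pairs (median 0.10), against a median of -0.04 over 36 pairs with different numbers. Alternatives were the experiment as a block, only the groups compared, median centring, quantile normalization, a filter on dim genes, trended robust moderation and leaving out each array.

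The text names all 10 SR genes, at most 3 called genes with the largest PIM-Pd difference from each other list, and MYC. Of the 5 genes with the profile most like the SR genes it names UQCRC2, the only one with a symbol here. SRPK1, SNRPF, PHF5A, PUF60, SLAMF7, CD3E, the Pd values and the 2 lists with no named gene were added to complete the lists. Members and lists were chosen with earlier results of these data known.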

Additional observations from a re-analysis of the deposited data

How the results depend on the processing

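SRSF1, SRSF2, SRSF6, SRSF7 and SRSF9 stayed called lower in PIM-Pd against control under all 18 alternatives, as did SRSF2 in PIM-Pd against PIM. The replicate block (experiment) left 6 members called in PIM-Pd against control, 1 in Pd against control and 3 in PIM-Pd against PIM, and it changed no call of any member. Leaving out single arrays gave 5 to 6 members in PIM-Pd against control, 0 to 1 in Pd against control and 1 to 4 in PIM-Pd against PIM. With only the groups compared, 1 member was called in PIM-Pd against PIM. No member was called in the other 4 comparisons under any alternative.

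Genes called over the whole array, lower and higher, were 0 and 0 in PIM against control, 344 and 616 in Pd against control, 889 and 782 in PIM-Pd against control, 13 and 1 in PIM-Pd against Pd, 480 and 523 in PIM-Pd against PIM, 163 and 438 in Pd against PIM, and 2 and 1 in the interaction. With only the groups compared these became 178 and 277 in PIM-Pd against PIM, 1 and 0 in PIM-Pd against Pd and 522 lower in Pd against control. PIM-Pd against Pd gave 20 and 6 with trended robust moderation, 8 and 0 after quantile normalization, 8 and 3 with the replicate block and 11 and 0 of 8855 genes without dim genes. The interaction gave 1 and 1 with the block and 2 and 0 without dim genes. Over single arrays left out, the ranges were 139 to 395 and 351 to 668 (Pd against control), 575 to 951 and 521 to 820 (PIM-Pd against control), 2 to 12 and 0 to 4 (PIM-Pd against Pd), 323 to 454 and 324 to 549 (PIM-Pd against PIM), 65 to 199 and 221 to 511 (Pd against PIM), and 0 to 2 and 0 to 1 (interaction). The lowest counts came without control replicate 1 (139), Pd replicate 3 (351, 2, 65 and 221), control replicate 3 (575 and 521), PIM-Pd replicate 1 (323) and PIM-Pd replicate 3 (324). The cause was not tested.

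Differences that changed sign were all uncalled. After quantile normalization they were 0.048 for SRSF6 and 0.041 for SRSF11 in PIM, 0.011 for SRSF5 in PIM-Pd, -0.030 for SRSF10 in Pd against PIM and -0.017 for SRSF1 in the interaction. Over single arrays left out, PIM against control ranged from -0.28 to 0.0065 for SRSF3, -0.31 to 0.063 for SRSF4, -0.25 to 0.095 for SRSF5, -0.14 to 0.13 for SRSF6 and -0.075 to 0.075 for SRSF11. PIM-Pd against control ranged from -0.13 to 0.11 for SRSF5 and -0.035 to 0.16 for SRSF11, and PIM-Pd against Pd from -0.20 to 0.011 for SRSF11. PIM-Pd against PIM ranged from -0.23 to 0.14 for SRSF4, -0.12 to 0.22 for SRSF5, -0.047 to 0.22 for SRSF10 and -0.033 to 0.17 for SRSF11, and Pd against PIM from -0.12 to 0.14 for SRSF10. The interaction ranged from -0.062 to 0.061 for SRSF1, -0.32 to 0.047 for SRSF4, -0.31 to 0.037 for SRSF5 and -0.19 to 0.018 for SRSF11. Alternatives for the other gene lists were not run, since few of their genes could be named.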
